A study of Mus musculus with 51 samples.

Results

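Cpsf6 and Papola are 2 genes of messenger RNA 3-prime end processing that were measured on 51 spotted 2-colour arrays. They were taken by their platform gene symbols, and they account for 6 of 16896 spots, which make 3 of 7920 probes once each pair of replicate spots is averaged and control positions are left out. Cpsf6 has 1 probe, printed in block 27 (row 1, column 7 of its block). Papola has 2 probes, the first in block 14 (row 2, column 20) and the second in block 30 (row 5, column 17), and both carry the same listed sequence accession. The genes were chosen by their measured difference between the arrays of 2 pmol and those of 0 pmol, so values at these amounts, and every difference from 0 pmol, are given for them as description with no test.

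The study set out to evaluate methods that pick out changed genes from microarrays, with RNA added in known amounts. Every array carried RNA of CRL1606 in both channels. CRL1606 is a mouse hybridoma line made by fusing BALB/c spleen cells with a BALB/c myeloma line, grown in suspension without serum, and it secretes an antibody to human fibronectin. Per the labels, 100 genes were spiked into channel 1 and another 100 into channel 2 on each spiked array, with the same amount for every gene. Groups of 3 arrays received 0.025, 0.15, 0.2, 1 or 2 pmol, groups of 6 arrays received 0.05, 0.1, 0.25, 0.5 or 0.75 pmol, and a group of 6 arrays at 0 pmol was the plain self-hybridisation. The labels do not name the spiked genes. All groups share 1 cell line, and no label says that the replicates are separate cultures. The p-values therefore speak only of array-to-array spread, some or all of which may be technical.

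When a pre-messenger RNA is finished, a multi-subunit complex recognises the polyadenylation signal, cuts the transcript downstream of it, and poly(A) polymerase adds adenosines to the new end. Cpsf6 encodes a large subunit of cleavage factor I, which binds upstream sequence elements and affects which of several polyadenylation sites is used. Papola encodes the canonical nuclear poly(A) polymerase alpha. In B-lineage cells the choice of polyadenylation site is known for switching the immunoglobulin heavy chain between its membrane and secreted forms.

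Every value is a log2 ratio of the 2 channels of a spot, from which the median of its array was subtracted. A ratio of 0 thus means a probe that lay at the middle of its array. The sources used here do not say which channel is the numerator, so ratios are called positive or negative and no channel is called brighter. Because 1 RNA was set against itself, the ratios hold no expression level, and the cell label could not be checked with them: 1 of 12 B-lineage and plasma cell markers and 4 of 11 markers of other cells were measured at all. The replicate spots of a probe correlated over all probes with a median r of 0.887 per array, and the lowest array, replicate 4 of 0.75 pmol, had 0.198. The 3 arrays of 1 pmol lacked 13.5%, 50.5% and 30.5% of spots, against at most 9.29% on any other array. All 3 probes of Cpsf6 and Papola were measured on all 51 arrays, with 1 spot of the second Papola probe missing on 1 array.

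Cpsf6 ratios were positive on 45 of 45 spiked arrays, from 2.37 to 9.02, and lay between -0.20 and 1.02 on the 6 arrays of 0 pmol. At 0 pmol the lowest, median and highest ratios were -0.20, 0.44 and 1.02. At 0.025 pmol the 3 arrays gave 3.51, 3.71 and 5.51. At 0.05 pmol the lowest, median and highest of 6 arrays were 2.37, 3.98 and 5.15. Already at the lowest amount every array lay above every array of 0 pmol, and the ranges at 0.025 and 0.05 pmol overlapped. At 0.1 pmol the ratios ran over 3.11, 4.10 and 6.77 (lowest, median, highest). The 3 arrays of 0.15 pmol gave 5.67, 6.79 and 7.34. Those of 0.2 pmol gave 4.76, 4.26 and 7.38, so that 1 array of 0.2 pmol was as high as the highest of 0.15 pmol and the other two were lower than all of them.

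At 0.25 pmol the lowest, median and highest Cpsf6 ratios were 4.65, 5.35 and 8.12. At 0.5 pmol they were 5.24, 6.04 and 6.46, the tightest of the groups of 6 spiked arrays. At 0.75 pmol they were 2.40, 4.71 and 6.26, and the lowest of these was below every array of 0.025 pmol. The 3 arrays of 1 pmol gave 7.93, 9.02 and 7.99, and those of 2 pmol gave 8.24, 8.27 and 7.63. The arrays of 1 and 2 pmol overlapped each other, and all 6 lay above every array of 0.5 and 0.75 pmol, while 2 arrays of 0.25 pmol reached into their range.

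**Figure D1:**
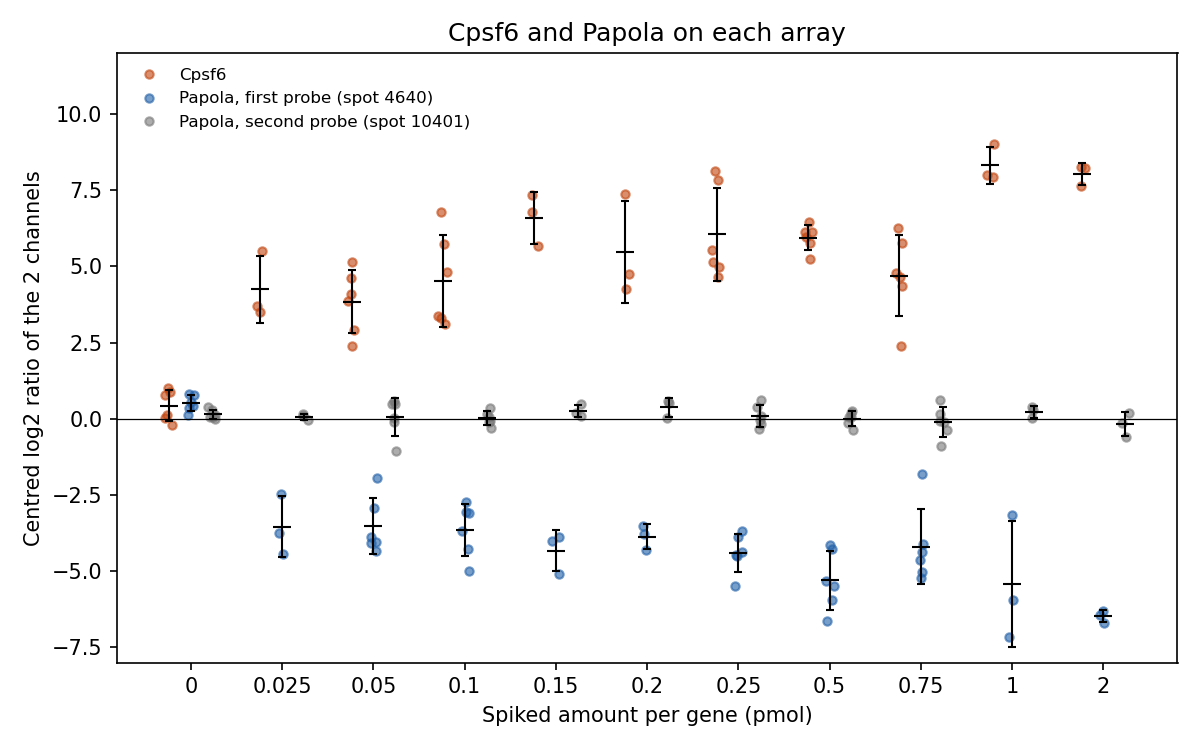
Centred log2 ratio (vertical axis) of Cpsf6 and of both Papola probes on each of 51 arrays, by spiked amount per gene in pmol (horizontal axis, amounts spaced evenly); each point is 1 array, and bars give the mean and SD of a group. Cpsf6 lies above 2 and the first Papola probe below -1.5 on every spiked array, while the second Papola probe lies between -1.06 and 0.62.

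The mean of Cpsf6 by amount, with its SD, was 0.43 ± 0.51 at 0 pmol (n = 6), 4.24 ± 1.10 at 0.025 pmol (n = 3), 3.84 ± 1.04 at 0.05 pmol (n = 6) and 4.52 ± 1.51 at 0.1 pmol (n = 6). It was 6.60 ± 0.85 at 0.15 pmol (n = 3), 5.47 ± 1.68 at 0.2 pmol (n = 3) and 6.05 ± 1.53 at 0.25 pmol (n = 6). Above these it was 5.95 ± 0.42 at 0.5 pmol (n = 6), 4.70 ± 1.34 at 0.75 pmol (n = 6), 8.31 ± 0.61 at 1 pmol (n = 3) and 8.04 ± 0.36 at 2 pmol (n = 3). On a linear scale the mean log2 ratio amounts to an 18.9-fold ratio of the channels at 0.025 pmol, a 318-fold ratio at 1 pmol and a 264-fold ratio at 2 pmol. The value at 1 pmol depended on scaling: with all arrays scaled to one spread, the Cpsf6 mean at 1 pmol was 4.46 in place of 8.31, below the 7.04 it then had at 0.5 pmol. Without centring, the Cpsf6 mean was 2.21 at 0.05 pmol, 3.48 at 0.2 pmol and 2.76 at 0.75 pmol. From low to high, the order of the means was 0, 0.05, 0.025, 0.1, 0.75, 0.2, 0.5, 0.25, 0.15, 2 and 1 pmol. Between neighbours in this order, only 0 and 0.05 pmol, and 0.15 and 2 pmol, had ranges that did not overlap.

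The 42 arrays of 0.025 to 1 pmol were not among those whose difference chose the genes. On them the mean at each amount was tested against 0 with limma, with Benjamini-Hochberg adjustment over all probes. The choice was still made with earlier results of these data known, for a large difference at the highest amount. If the same genes were spiked at every amount, that choice favours a mean off 0 at the other amounts too. The tests against 0 are therefore no independent support for Cpsf6 or the first Papola probe. The Cpsf6 mean differed from 0 at 9 of 9 amounts, on the positive side each time. The adjusted p ran between 2.26e-13 at 0.25 pmol and 1.07e-05 at 0.025 pmol (limma), and the ratio was positive on 42 of 42 arrays. Of all probes tested, the share called positive at the same threshold of 0.05 was 8.7% at 0.025 pmol, 10.6% at 0.05 pmol, 3.09% at 0.1 pmol, 4.1% at 0.15 pmol, 3.31% at 0.2 pmol, 5.71% at 0.25 pmol, 7.13% at 0.5 pmol, 5.95% at 0.75 pmol and 14.7% at 1 pmol. Many probes thus shared such a call. By size, Cpsf6 was among the 50 most positive probes on 44 of 45 spiked arrays. Its poorest place was 63rd, on replicate 6 of 0.05 pmol. These arrays include those of 2 pmol, where a large difference from 0 pmol chose the gene, so its places are description.

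The first Papola probe moved the other way. Its ratios were negative on 45 of 45 spiked arrays, from -7.16 to -1.82, and lay between 0.11 and 0.82 on the 6 arrays of 0 pmol. At 0 pmol the lowest, median and highest were 0.11, 0.49 and 0.82. At 0.025 pmol the 3 arrays gave -2.46, -4.42 and -3.76. At 0.05 pmol the lowest, median and highest were -4.35, -3.96 and -1.94. As with Cpsf6, each array of the lowest amount was clear of every array of 0 pmol, and the ranges at 0.025 and 0.05 pmol overlapped. At 0.1 pmol the ratios ran over -4.99, -3.39 and -2.73. The 3 arrays of 0.15 pmol gave -5.09, -3.86 and -4.01. Those of 0.2 pmol gave -4.31, -3.51 and -3.79, all inside the range at 0.1 pmol.

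At 0.25 pmol the lowest, median and highest ratios of the first Papola probe were -5.49, -4.42 and -3.69. At 0.5 pmol they were -6.64, -5.40 and -4.14, and at 0.75 pmol -5.21, -4.50 and -1.82. The least negative array of 0.75 pmol, replicate 4, was nearer to 0 than any other spiked array. The 3 arrays of 1 pmol gave -5.94, -7.16 and -3.15, and those of 2 pmol gave -6.43, -6.30 and -6.69. The arrays of 2 pmol were the tightest group, and the arrays of 1 pmol, which span it on both sides, were the widest.

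By amount, the mean of the first Papola probe with its SD was 0.51 ± 0.27 at 0 pmol (n = 6), -3.55 ± 1.00 at 0.025 pmol (n = 3), -3.53 ± 0.92 at 0.05 pmol (n = 6) and -3.64 ± 0.86 at 0.1 pmol (n = 6). It was -4.32 ± 0.67 at 0.15 pmol (n = 3), -3.87 ± 0.40 at 0.2 pmol (n = 3) and -4.41 ± 0.63 at 0.25 pmol (n = 6). The last 4 amounts gave -5.30 ± 0.97 at 0.5 pmol (n = 6), -4.20 ± 1.24 at 0.75 pmol (n = 6), -5.42 ± 2.06 at 1 pmol (n = 3) and -6.47 ± 0.20 at 2 pmol (n = 3). Ordered from the highest mean to the most negative, the amounts were 0, 0.05, 0.025, 0.1, 0.2, 0.75, 0.15, 0.25, 0.5, 1 and 2 pmol, and only 0 and 0.05 pmol were neighbours whose ranges did not overlap. With arrays scaled to one spread the mean at 1 pmol was -2.91, and without centring that at 0.2 pmol was -5.86. Against 0, the mean passed at 9 of 9 amounts of 0.025 to 1 pmol on the negative side, with adjusted p between 1.06e-13 at 0.5 pmol and 1.15e-05 at 0.025 pmol (limma). The limit set by the choice of the genes holds for these tests as for those of Cpsf6. Among all probes tested, 13.3%, 15.1%, 4.96%, 4.49%, 2.27%, 3.62%, 9.82%, 6.44% and 29.5% were called negative at these amounts from low to high. By size, the first Papola probe was among the 50 most negative probes on 37 of 45 spiked arrays, and its poorest place was 301st. Its places are description as well, as the arrays of 2 pmol are among them.

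The second Papola probe stayed near the middle of the arrays. Its ratios on the 45 spiked arrays ran between -1.06 and 0.62, with 28 positive and 17 negative. From 0 to 2 pmol its means were 0.15, 0.07, 0.06, 0.02, 0.26, 0.37, 0.09, 0.01, -0.11, 0.23 and -0.17. Every pair of neighbours in the order of these means overlapped. By limma its mean differed from 0 at 0 of 9 amounts, also at an unadjusted p under 0.05, and the adjusted p ran between 0.439 and 0.992. Without centring the arrays on their medians, its mean differed from 0 at 6 of the 9 amounts, as the centre of the arrays itself then lay off 0.

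The difference of the 2 Papola probes was measured array by array, a comparison that was chosen after their values had been seen. Over the 42 arrays of 0.025 to 1 pmol, the first probe minus the second averaged -4.31 ± 1.18 (SD, n = 42 arrays), between -7.45 and -1.46. The first probe was lower on 42 of 42 arrays. At 2 pmol the difference was -6.30 ± 0.40 (SD, n = 3), and at 0 pmol 0.36 ± 0.37 (SD, n = 6), and all these differences are given without a test. So 2 printed probes under 1 accession and 1 gene symbol gave ratios that did not overlap on any amount above 0 pmol.

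How often probes of 1 accession part in this way was counted over the whole array, again after seeing the values. In all, 782 accessions were printed as 2 or more probes. For 41 of them at least 1 probe had an absolute mean of 3 or more at 2 pmol. Of these 41, 34 had another probe under 1, and 3 had every probe at 3 or more, of which 1 had probes of opposite sign. Papola is thus 1 of 34 accessions with a large and a small ratio, and agreement of the probes of 1 accession was the rarer case among those with a large ratio.

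The replicate spots of a probe, printed 22 positions apart in the same block, set the technical spread within an array. Their gap had a median of 0.091 for Cpsf6, 0.071 for the first Papola probe and 0.11 for the second. Across arrays the spots of a probe correlated with r = 0.994 for Cpsf6, 0.907 for the first Papola probe and 0.731 for the second, over arrays that share RNA and amounts. For Cpsf6 and the first Papola probe the SD between arrays of 1 amount was larger than this gap at all 11 amounts. Gaps over 0.5 were found on 2 arrays for Cpsf6 (largest 1.44), on 1 for the first Papola probe and on 4 for the second (largest 1.45). By far the largest was on replicate 3 of 1 pmol, where the spots of the first Papola probe gave -6.21 and -0.085, a gap of 6.12. Of 5114 measured pairs on that array, 7 (0.137%) had a gap as large, and the median gap was 0.236. With its first spot alone on that array, the mean at 1 pmol was -6.44 ± 0.64 (SD, n = 3), in place of -5.42 ± 2.06.

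**Figure D2:**
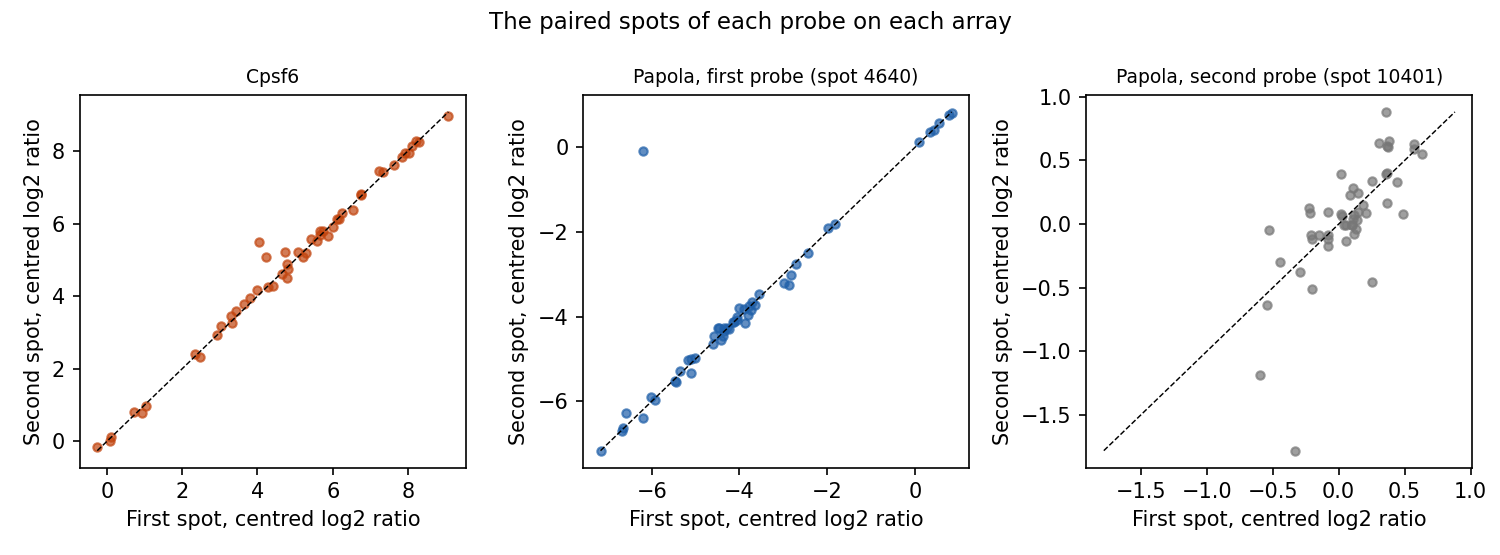
Centred log2 ratio of the second replicate spot (vertical axis) against the first (horizontal axis) on each array, 1 panel per probe, with dashed lines of equality and axes of different scale. Points lie near the line for Cpsf6, with spots over 0.5 apart on 2 arrays. They do so for the first Papola probe but for 1 array of 1 pmol, with spots at -6.21 and -0.085. For the second Papola probe they scatter around 0.

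Cpsf6 and the first Papola probe were then set against the amount, with the log2 ratio fitted by limma on log2 of the amount over the 42 arrays of 0.025 to 1 pmol. The Cpsf6 ratio rose by 0.48 per doubling of the amount (SE 0.13, 95% interval 0.21 to 0.74, adjusted p = 0.0124). The first Papola probe fell by 0.33 per doubling (SE 0.093, interval -0.51 to -0.14, adjusted p = 0.0146, limma). The second Papola probe had a slope of -0.011 (SE 0.038, interval -0.087 to 0.065, adjusted p = 0.865, limma). Of all 7920 probes, 18.8% had a slope that passed, 9.86% positive and 8.96% negative, so a passing slope was common here too. By size, Cpsf6 had the 22nd most positive slope and the first Papola probe the 72nd most negative. The choice of the genes for a large difference at the highest amount can favour a slope off 0 as well. The slope tests and places are therefore no independent support for Cpsf6 or the first Papola probe.

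Neither slope reached 1 in size, which is what a ratio proportional to the amount would have on these axes, and the intervals of both ended short of it. Between the ends of the series, the amount differs 80-fold at 2 against 0.025 pmol. Over this span the Cpsf6 mean was higher by 3.80 on the log2 scale, which is 13.9-fold, and the mean of the first Papola probe was more negative, at a difference of -2.92, which is 7.58-fold in size. The second Papola probe differed by -0.24. As 2 pmol chose the genes, these differences are descriptions.

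The slopes were less stable than the levels. Without the 1 pmol arrays the Cpsf6 slope was 0.32 per doubling and did not pass (adjusted p = 0.103, limma), while the first Papola probe kept -0.29 (adjusted p = 0.0324). Arrays also formed 6 sets by their ratios over probes that were small at 2 pmol, and each set held only some of the amounts. Within the 4 sets that held enough amounts, the Cpsf6 slope was 0.50, 0.89, -0.30 and -0.95, with adjusted p between 0.138 and 0.936 (limma). The slope of the first Papola probe in the same sets was -0.55, -0.47, -0.10 and -0.42, with adjusted p between 0.291 and 0.951. Cpsf6 thus changed its sign in 2 of 4 sets and the first Papola probe in none, and no within-set slope passed. With the set as a covariate over all 42 arrays, both slopes passed and were steeper, at 0.62 for Cpsf6 (adjusted p = 0.0122) and -0.47 for the first Papola probe (adjusted p = 0.00795, limma).

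Amounts with 6 arrays allow replicates 4 to 6 to be set beside replicates 1 to 3. At 0.1 pmol the Cpsf6 ratio was 3.11 to 3.38 on replicates 4 to 6, and 4.83 to 6.77 on replicates 1 to 3. On the negative side, the first Papola probe was at -3.10 to -2.73 on replicates 4 to 6, and at -4.99 to -3.68 on replicates 1 to 3. At 0.1 pmol both probes were thus nearer to 0 on replicates 4 to 6, and neither pair of ranges overlapped. Paired spots over all probes correlated with r of 0.402 to 0.52 on replicates 4 to 6 of 0.1 pmol, and 0.938 to 0.955 on replicates 1 to 3. At 0.05 pmol this r was 0.455 to 0.691 on replicates 4 to 6, and 0.925 to 0.958 on replicates 1 to 3, and there the first Papola probe again did not overlap, at -3.88 to -1.94 on replicates 4 to 6 and -4.35 to -4.03 on replicates 1 to 3. The part of spot agreement in these gaps was not tested.

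The split was not the same at every amount. At 0.05 pmol the Cpsf6 ranges overlapped, at 2.37 to 4.09 on replicates 4 to 6 and 3.87 to 5.15 on replicates 1 to 3. At 0.25 and 0.75 pmol both probes' ranges overlapped. At both amounts Cpsf6 had the higher mean on replicates 4 to 6, with means of 7.04 on replicates 4 to 6 against 5.06 on replicates 1 to 3 at 0.25 pmol. At 0.75 pmol the Cpsf6 means were 4.81 on replicates 4 to 6 and 4.59 on replicates 1 to 3. The first Papola probe averaged -4.03 on replicates 4 to 6 and -4.78 on replicates 1 to 3 at 0.25 pmol. At 0.75 pmol it averaged -4.02 on replicates 4 to 6 and -4.37 on replicates 1 to 3. Its mean was thus nearer to 0 on replicates 4 to 6 at all 5 spiked amounts with 6 arrays, and that of Cpsf6 at 3 of them. At 0.5 pmol the ranges parted for both: Cpsf6 was 5.24 to 5.96 on replicates 4 to 6, and 6.11 to 6.46 on replicates 1 to 3. For the first Papola probe the ratios were -5.31 to -4.14 on replicates 4 to 6, and -6.64 to -5.49 on replicates 1 to 3. Paired-spot r at 0.5 pmol was 0.943 to 0.976 on replicates 4 to 6, and 0.815 to 0.957 on replicates 1 to 3. At 0 pmol, with no spike and paired-spot r of 0.617 to 0.805, Cpsf6 was 0.77 to 1.02 on replicates 4 to 6, and -0.20 to 0.11 on replicates 1 to 3. There the first Papola probe was 0.56 to 0.82 on replicates 4 to 6 and 0.11 to 0.43 on replicates 1 to 3, and the second was 0.0050 to 0.049 on replicates 4 to 6 and 0.12 to 0.37 on replicates 1 to 3. At each spiked amount with 6 arrays, replicates 4 to 6 and replicates 1 to 3 fell in different array sets, while all arrays of 0 pmol shared the same set. These splits were noticed in the data, and they and the part of the sets in them were not tested.

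Left without the arrays whose paired spots correlated under 0.7, Cpsf6 averaged 4.55 at 0.05 pmol, 5.78 at 0.1 pmol and 5.16 at 0.75 pmol. The first Papola probe then averaged -4.15, -4.31 and -4.67 at the same amounts. All 6 means were farther from 0 than with every array, and all kept their call. At 0.05 and 0.1 pmol the arrays left out were replicates 4 to 6, so these means are those of replicates 1 to 3. Spot agreement cannot be told apart there from the split of the replicates.

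**Figure D3:**
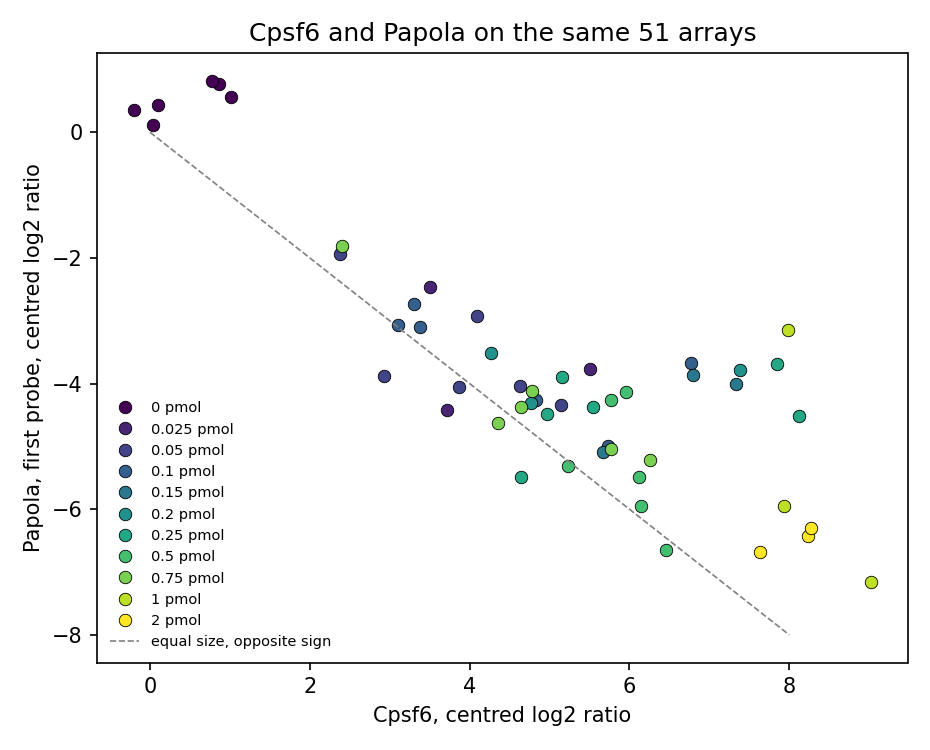
Centred log2 ratio of the first Papola probe (vertical axis) against that of Cpsf6 (horizontal axis), with 1 point for each of 51 arrays, coloured by amount in pmol, and a dashed line where both ratios have equal size and opposite sign. The 6 arrays of 0 pmol lie at the upper left near 0, and the 45 spiked arrays lie to the lower right, with Cpsf6 between 2.37 and 9.02 and Papola between -7.16 and -1.82.

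On the same arrays, larger Cpsf6 ratios went with more negative ratios of the first Papola probe. Over the 45 spiked arrays, which share RNA and differ in amount, Pearson's r was -0.644, and after subtracting the mean of each amount it was -0.384. The second Papola probe had r = 0.143 with Cpsf6 and 0.086 with the first Papola probe over the same arrays. On replicate 4 of 0.75 pmol, the array with the lowest spot agreement, Cpsf6 had its group's lowest ratio (2.40) and the first Papola probe its group's ratio nearest to 0 (-1.82).

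Patterns most like each probe were looked up among 7900 probes by Pearson's r over the spiked arrays, as a description over arrays that share amounts. Closest to Cpsf6 were an unnamed probe at spot 11975 (r = 0.935), Nepro, a nucleolar protein gene (0.916), an unnamed probe at spot 931 (0.909), Tmc7, of the transmembrane channel-like family (0.897), and Ppp2r1b, a scaffold subunit of protein phosphatase 2A (0.895). These 5 probes averaged 5.64, 6.19, 6.11, 5.42 and 6.37 at 2 pmol, and they are printed in columns 7, 6, 7, 7 and 8 of their blocks, where Cpsf6 is in column 7. Closest to the first Papola probe were Topbp1, a DNA damage checkpoint gene (r = 0.904 over 43 arrays), Cbx8, of a Polycomb complex (0.839), an unnamed probe at spot 13160 (0.812), Spag5, of the mitotic spindle (0.810), and Rell1 (0.806). Their means at 2 pmol were -6.77, -6.00, -6.63, -6.05 and -4.35. Each of the 10 therefore had the sign of the probe it resembled. Those like the first Papola probe are printed in columns 2, 21, 4, 7 and 9, where that probe is in column 20. The second Papola probe had weaker likenesses, led by Tbcel (r = 0.732), Mthfd1 (0.707), Usf3 (0.682), Slc4a10 (0.643) and Knop1 (0.634), which averaged between -0.46 and -0.13 at 2 pmol. They are printed in columns 21, 18, 15, 13 and 4, where the second Papola probe is in column 17.

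Neighbours on the print gave mixed values. Left of Cpsf6, Ino80, a chromatin remodelling ATPase, averaged 6.24 at 2 pmol, against -0.0066 at 0 pmol. Below Cpsf6, Tmc7 averaged 5.42 at 2 pmol, against 0.29 at 0 pmol. The probe to its right, at spot 9160, stayed at -0.36 at 2 pmol, against 0.10 at 0 pmol. Ino80 had r = 0.394 with Cpsf6 over the spiked arrays and a median of 1.16 over the arrays of 0.025 to 1 pmol, so it was large at 2 pmol without following Cpsf6 below it.

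Around the first Papola probe no neighbour was strongly negative at 2 pmol. Cisd2, above it, averaged 5.23 at 2 pmol, against 1.26 at 0 pmol. Kcnd2, to its left, averaged -0.33 at 2 pmol, against -0.12 at 0 pmol, and E330033B04Rik, to its right, 0.055 at 2 pmol, against -1.29 at 0 pmol. Spot 4684, below it, averaged -0.47 at 2 pmol, against -0.75 at 0 pmol. Its median over the arrays of 0.025 to 1 pmol was -1.19, where those of Cisd2, Kcnd2 and E330033B04Rik were 3.40, -0.11 and -0.0185. Around the second Papola probe, Cdk5rap3, Palld, Stim2 and spot 10445 averaged 0.22, -0.40, -0.047 and 0.54 at 2 pmol, against -0.022, -2.18, -1.43 and -0.91 at 0 pmol.

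The rest of the pathway was followed with 2 gene lists, compared at each amount with 0 pmol by limma over all 51 arrays. All arrays of 0 pmol fell in the same array set, beside only replicates 4 to 6 of 0.1 pmol and 1 to 3 of 0.75 pmol. At the other amounts, a difference from 0 pmol therefore cannot be told apart from a difference between array sets. This holds for every difference from 0 pmol given here at those amounts, for the genes of the lists and for Cpsf6 and Papola. At 0.1 and 0.75 pmol it holds in part, as the remaining arrays of these amounts lay in other sets. The core list holds 45 genes of cleavage, polyadenylation and histone 3-prime ends, of which 10 were measured beside Cpsf6 and Papola, with 13 probes. From 0.025 to 2 pmol, 1, 2, 2, 3, 3, 3, 5, 1, 2 and 4 of its probes were called positive, beside 1.67%, 2.25%, 4.09%, 6.79%, 6.03%, 8.98%, 14.1%, 4.92%, 15.9% and 10.3% of all probes. Called negative were 0 probes at each amount of 0.025 to 0.25 pmol, then 2 at 0.5 pmol, 1 at 0.75 pmol, 3 at 1 pmol, where 11 were tested, and 1 at 2 pmol, beside 3.31%, 1.91%, 2.17%, 3.89%, 2.87%, 4.04%, 11%, 2.56%, 26.6% and 5.33% of all probes from 0.025 to 2 pmol. The median difference of the list lay between -0.42 at 1 pmol and 0.41 at 0.2 pmol, where that of all probes was -0.18 and 0.055. In all, 10 of the 13 probes were called at 1 amount or more, beside 53.4% of all probes.

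Snrpa, a protein of the U1 small nuclear ribonucleoprotein that binds its own transcript and inhibits poly(A) polymerase, was called at 10 of 10 amounts. Its difference was 2.29 at 0.025 pmol (adjusted p = 0.000755), 3.24 at 0.5 pmol (adjusted p = 4.13e-09) and 4.58 at 2 pmol (adjusted p = 7.57e-11, limma), and its slope was 0.27 per doubling (SE 0.094, adjusted p = 0.0376). It thus had the sign of Cpsf6 at every amount, at a smaller size. It was not called at 0.05 and 0.75 pmol without centring (adjusted p = 0.0636 and 0.0623, limma), nor at 0.025 and 0.05 pmol with arrays scaled to one spread (adjusted p = 0.208 and 0.146, limma).

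Scaf8 and Scaf4 bind the tail of RNA polymerase II and, in human cells, restrain early polyadenylation. The Scaf8 probe at spot 15720 was called at 5 amounts, by 3.46 at 0.15 pmol and 2.19 at 2 pmol (adjusted p = 0.000471 and 0.0234, limma). Of the other two Scaf8 probes, that at spot 6660 was called at 3 amounts, all positive, and that at spot 3440 at 1, negative. The Scaf4 probe at spot 2208 was called at 4 amounts, by 1.85 at 2 pmol (adjusted p = 8.85e-05), and the other, at spot 3704, was called at 1 amount, by -1.03 at 1 pmol. The Scaf4 probes were thus called with opposite signs at 1 pmol, by 1.47 at spot 2208. The negative Scaf8 call was at 0.75 pmol, where the Scaf8 probes at spots 15720 and 6660 were not called. With arrays scaled to one spread, the probe at spot 3440 gained 4 negative calls, at 0.1, 0.15, 0.2 and 0.5 pmol. Its adjusted p at these amounts was 0.033, 0.037, 0.018 and 0.026 (limma). At 0.15, 0.2 and 0.5 pmol the Scaf8 probes at spots 15720 and 6660 were called positive under the same scaling. Fip1l1, the cleavage complex subunit that holds poly(A) polymerase, was called at 4 amounts, by 0.91 at 0.05 pmol and 1.09 at 0.15 pmol, and was not called at 2 pmol (0.61, adjusted p = 0.196, limma). Without centring, Fip1l1 lost its calls at 0.05, 0.1 and 0.15 pmol (adjusted p = 0.594, 0.143 and 0.0792, limma) and was called at 2 pmol (1.98, adjusted p = 0.0223), and with arrays scaled it lost that at 0.05 pmol (adjusted p = 0.0594). Without centring the Scaf4 probe at spot 2208 lost 2 of its 4 calls, at 0.25 and 1 pmol (adjusted p = 0.0738 and 0.13, limma), the Scaf8 probes at spots 6660 and 3440 lost 1 call each, and the Scaf4 probe at spot 3704 lost its call, also with arrays scaled.

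The second list holds 50 genes that lengthen, shorten or bind the poly(A) tail or act after its removal, of which 13 were measured, with 20 probes. Its probes are described in the same way. Positive and negative calls were 0 and 1 at 0.025 pmol, 1 and 0 at 0.15 pmol, 3 and 0 at 0.25 pmol, 5 and 2 at 0.5 pmol, 1 and 1 at 0.75 pmol, 2 and 4 of 13 tested at 1 pmol, and 3 and 0 at 2 pmol. At 0.05, 0.1 and 0.2 pmol 0 probes were called by limma, and 4, 5 and 3 had an unadjusted p under 0.05. The shares of all probes called are those given for the core list. The median difference ran between -0.34 at 1 pmol and 0.34 at 2 pmol, beside -0.18 and 0.043 for all probes. In all, 12 of the 20 probes were called at 1 amount or more, beside the same 53.4% of all probes. Of slopes on the amount, 3 positive and 3 negative passed in each list, of 13 probes in the core list and 20 in the tail list, beside the 18.8% of all probes.

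Cnot10 and Cnot9 are subunits of the CCR4-NOT complex, the main deadenylase of the cytoplasm. Cnot10 was called at 5 amounts, those of 0.25, 0.5, 0.75, 1 and 2 pmol, by 1.94, 2.43, 3.17, 5.66 and 5.78 in that order (adjusted p between 1.28e-08 and 0.0209, limma). Its slope of 0.64 per doubling (SE 0.12, adjusted p = 0.000563) was steeper than that of Cpsf6, a difference that was not tested. At 0.025 pmol it differed by 0.55 and was not called (adjusted p = 0.781, limma), where Cpsf6 differed by 3.81. Cnot9 was called at 5 amounts, by 1.19 at 0.15 pmol and 2.55 at 2 pmol (adjusted p = 0.0331 and 7.52e-07, limma). Without centring Cnot9 lost its calls at 0.15, 0.25 and 1 pmol (adjusted p = 0.0808, 0.0518 and 0.0522, limma), and with arrays scaled that at 1 pmol (adjusted p = 0.0935). Cnot10 kept all 5 calls under both settings.

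Dcp2, which removes the cap after deadenylation, was called at 3 amounts by its probe at spot 14438, by -1.13 at 0.5 pmol, -1.35 at 0.75 pmol and -1.37 at 1 pmol. None of these calls held without centring: at 0.5 pmol the sign turned, to 0.90 (adjusted p = 0.125), and at 0.75 and 1 pmol the adjusted p was 0.528 and 0.341 (limma). With arrays scaled, the call at 1 pmol was lost (adjusted p = 0.237, limma). The other Dcp2 probe, at spot 938, was called at no amount. Cnot1, the scaffold of the CCR4-NOT complex, was called at 2 amounts by its probe at spot 8406, by 0.96 at 2 pmol (adjusted p = 0.0442, limma). Its other two probes, at spots 16240 and 11194, were called at 1 amount each, by 1.25 at 0.25 pmol and -1.30 at 0.025 pmol, and the call at 0.025 pmol was lost without centring and with arrays scaled (adjusted p = 0.596 and 0.214, limma).

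**Figure D4:**
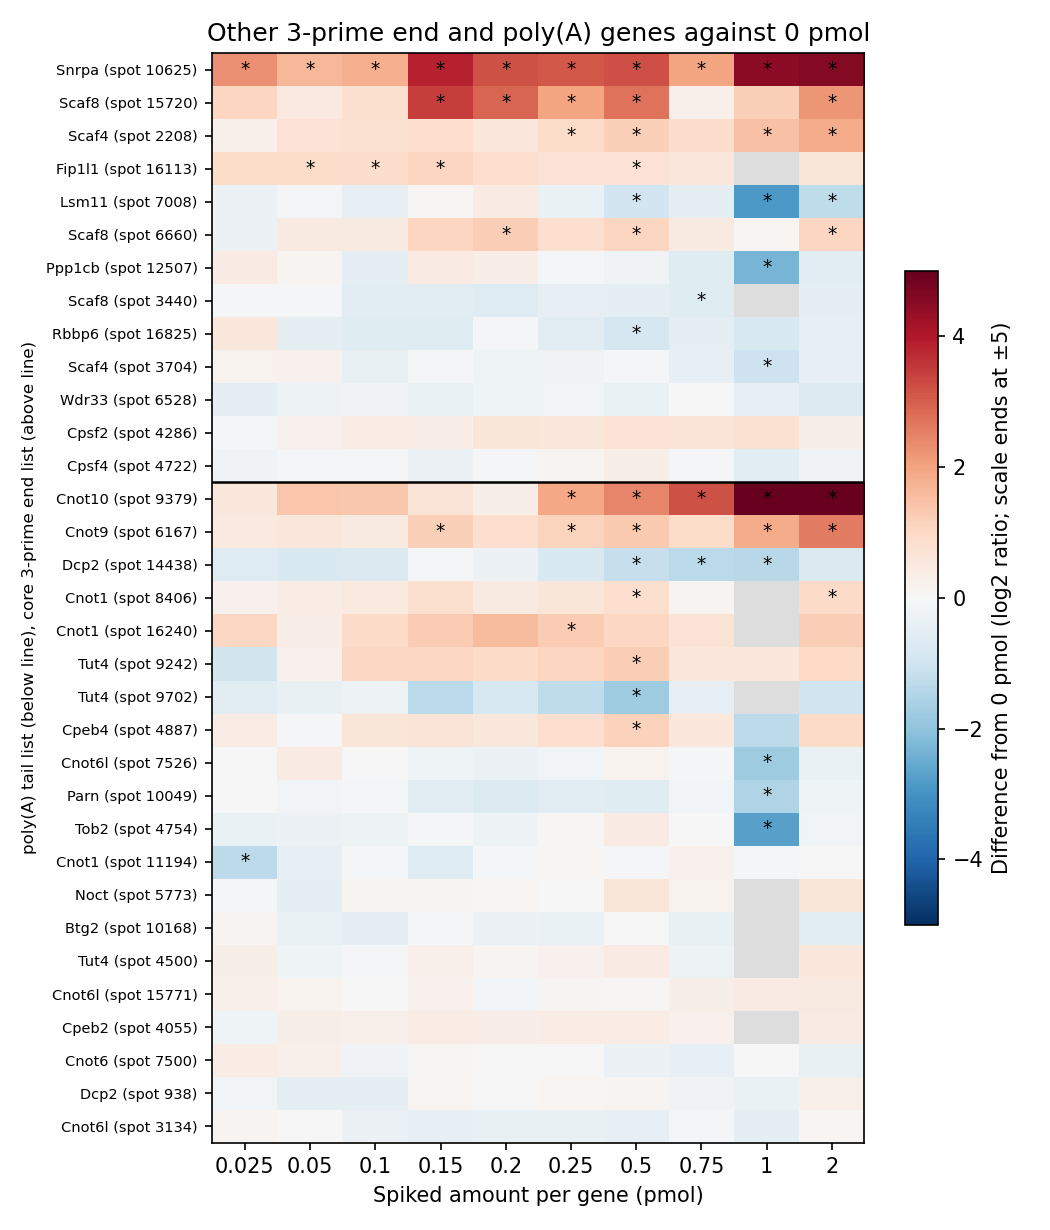
Difference from 0 pmol in centred log2 ratio (colour, red positive and blue negative, ending at 5 in size) of each probe of the core list (above the line) and of the poly(A) tail list (below it), by amount in pmol; a star marks an adjusted p under 0.05 (limma) and grey a probe not tested. Snrpa is red with a star at 10 of 10 amounts, Cnot10 reaches 5.78 at 2 pmol, and most other probes stay near 0.

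Centring moved the balance of these calls. Over all 10 amounts the core list had 26 positive and 7 negative calls, without centring 26 and 1, and with arrays scaled to one spread 26 and 11. The tail list had 15 and 8, without centring 32 and 1, and with arrays scaled to one spread 22 and 7. Without centring the median of all probes itself differed from 0 pmol by up to 2.05, at 0.5 pmol, so the centred values are those relative to the middle of each array. The differences of Cpsf6, the first Papola probe, Snrpa, Scaf8 at spot 15720, Scaf4 at spot 2208, Fip1l1, Cnot10, Cnot9 and Cnot1 at spots 8406 and 16240 kept their sign at every amount measured, both without centring and with arrays scaled. Without centring the differences turned sign at 7 of 9 amounts for Scaf8 at spot 3440 and at 1 of 10 for Scaf8 at spot 6660. They turned at 5 of 10 for Scaf4 at spot 3704 and Cnot1 at spot 11194. For Dcp2 they turned at 4 of 10 at spot 14438 and at 3 of 10 at spot 938, and for Lsm11, given below, at 6 of 10. With arrays scaled they turned at 2 of 10 for Scaf4 at spot 3704, and at 1 of 10 for Cnot1 at spot 11194 and Dcp2 at spot 938.

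Set beside these genes, Cpsf6 and the first Papola probe had the larger ratios, as chosen. Their differences from 0 pmol, given as description, were 3.81, 3.41, 4.09, 6.17, 5.04, 5.61, 5.51, 4.27, 7.88 and 7.61 for Cpsf6 from 0.025 to 2 pmol. For the first Papola probe they were -4.06, -4.04, -4.15, -4.83, -4.38, -4.91, -5.81, -4.70, -5.92 and -6.98. All amounts share the 6 arrays of 0 pmol in these differences. In the core list, Snrpa came nearest to Cpsf6, with differences of 1.68 to 4.58, and no probe of either list came near the first Papola probe on the negative side, where the lowest difference among tested probes was -2.86 at 1 pmol, for Lsm11 of the histone pre-messenger RNA processing complex, whose other 2 negative calls, at 0.5 and 2 pmol, turned sign without centring.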

How the data were processed

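For every spot of an array the authors deposited a log2 ratio of its channels; intensities were not used here. The log base was read from the values, and background correction, filtering and normalisation are not given in the sources used here. Array medians of the deposited log2 ratios ran from -3.33 to 0.971, so each array was centred on its median. Deposited log2 values at an upper limit of 16.61 (1074 values) were treated as missing. Spots 22 apart were averaged as 1 probe: all 5458 such pairs with listed accessions had the same one on both spots. Control positions repeated in each of 48 print blocks (528 probes) were left out. GEO's platform annotation gave 1 symbol to 10887 spots, several to 30 and none to 5979, and 10766 were matched by Entrez identifier to current RefSeq symbols of assembly GRCm38.p6.

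Tests used limma 3.58.1 (lmFit, eBayes) in R 4.3.3, two-sided, over all probes with at least 2 arrays per group, with Benjamini-Hochberg adjustment and a threshold of 0.05, and were checked on simulated data. The simulated noise was independent between arrays, took each probe's SD from the arrays of 0 pmol and held no array sets. The check therefore cannot show how often calls are false in these data. Arrays measured 8370 to 16862 spots, and their number limits the precision.

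The members and gene lists were chosen with earlier results of these data known. Genes named beside Cpsf6 and Papola were up to 4 probes per list called at the most amounts (ties by the difference at 2 pmol), the 5 probes of highest r with each member over at least 40 shared arrays, and the probes printed next to it. Other probes of a named gene, and Lsm11, were added after their values were seen. Same-numbered arrays of different amounts did not deviate together (median r 0.0047 over 210 pairs, against -0.0001 over 960 pairs of different numbers), so numbers were not used as pairs. Array sets came from Ward clustering over 3034 probes whose absolute mean at 2 pmol was under 1, and they are no labelled batch.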

Additional observations from a re-analysis of the deposited data

Results flagged for a closer look

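On replicate 4 of 0.75 pmol the first Papola probe had a ratio of -1.82, far from the other 5 arrays of that amount: the gap to the nearest of them was 0.679 of the group's whole range, against a critical value of 0.625 for 6 arrays. This was 1 of 18 groups examined, and chance marks about 1 in 20 groups. Cpsf6 was also lowest of its group on that array, at 2.40, and paired spots over all probes correlated there with r = 0.198, the lowest of the 51 arrays. Without that array the mean of the first Papola probe at 0.75 pmol was -4.67, in place of -4.20.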

How the results depend on the processing

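Over the alternatives other than leaving out 1 array, 239 values kept their direction and side of the threshold, 13 lost their call, 7 turned their sign and 6 counts moved by over 1.5 times; the causes were not tested. The means of Cpsf6 and the first Papola probe against 0 kept sign and call at 9 of 9 amounts under all alternatives run, with adjusted p up to 0.0129 and 0.0122 (arrays scaled, 0.025 pmol) and, leaving out any 1 array, up to 0.00195 and 0.00229 (limma). Moves over 1.5 times came with arrays scaled at 1 pmol (4.46 and -2.91) and without centring (Cpsf6 2.21, 3.48 and 2.76 at 0.05, 0.2 and 0.75 pmol, Papola -5.86 at 0.2 pmol). Leaving out 1 array at 1 pmol gave Papola -6.55 to -4.55.

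The Cpsf6 slope lost its call without centring (0.51, adjusted p = 0.0557), with arrays scaled (0.37), without the 1 pmol arrays (0.32), without these and arrays of low spot agreement (0.22, chosen after seeing the data), and within sets B (0.50) and C (0.89), and turned in sets D (-0.30) and E (-0.95). The first Papola slope lost its call without centring (-0.29), with arrays scaled (-0.30), on the second spot alone (-0.25), and within sets B (-0.55), C (-0.47), D (-0.10) and E (-0.42). The second probe's slope, never called, turned without centring (0.025), with the set as a covariate (0.012; the other two slopes passed there), and within sets C (0.057), D (0.23) and E (0.039); its amounts differing from 0 became 6 without centring. Leaving out 1 array gave 0.42 to 0.55, -0.38 to -0.27, and -0.034 to 0.0066 for the 3 slopes. With the replicate block the slopes of Cpsf6 and the first Papola probe were 0.49 and -0.34 (adjusted p = 0.00877 and 0.00703, limma), and list calls were 35 and 24; it changed no call of the members.

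The core list had 33 calls on 10 probes, and 6 called probes both among probes measured on all 51 arrays (9 of its 13) and with replicates 1 to 3 only. The tail list had 23 calls on 12 probes, against 12 calls on 4 probes among those on all 51 arrays (6 of its 20), where fewer probes were tested, and 36 calls without arrays of low spot agreement. Leaving out 1 array gave 24 to 42 core calls on 9 to 13 probes and 20 to 30 tail calls on 9 to 13 probes.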
